A study of Mus musculus with 12 samples.

Results

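Glutathione S-transferases (GSTs) were followed in mouse ear fibroblasts cultured on 4 kinds of alginate gel substrate, through 10 genes: Gstm1, Gstm2, Gstm5, Gsta4, Gstp1, Gstt1, Gstt3, Gsto1, Mgst1 and Mgst3. These genes, and the gene lists used below, were chosen by name from the 33246 genes of the raw count table. Earlier results of these data were known at that choice, so the p-values and counts of calls are not independent of it. Gstm1 itself was chosen by its measured level, which was high on stiff viscoelastic gels, so its values in the comparisons that involve the 20-kPa gels are given as a description, with no test. All 10 genes passed the filter on low counts, which left 14542 genes for testing, and the lowest count of any of them in any sample was 69 (Gsta4).

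The cells were primary fibroblasts from the ears of 1-month-old C57BL/6 mice, used at passage 2, and 500000 cells were seeded per gel and collected after 48 h. The gels were alginate carrying the RGD adhesion peptide, made either elastic by covalent crosslinks or viscoelastic, with slow stress relaxation, by calcium crosslinks. Each type was made at 2 kPa and at 20 kPa, which gave 4 groups of 3 samples: 2-kPa elastic, 20-kPa elastic, 2-kPa viscoelastic and 20-kPa viscoelastic. The wild-type strain, the adhesion peptide, the medium and the culture time were common to all groups. Crosslinking chemistry went with gel type, so a difference between gel types cannot be told apart from a difference between covalent and calcium crosslinks. The samples were named as biological replicates by the study, and the labels do not tie a sample to an animal, so the p-values measure the spread between these samples.

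GSTs join the tripeptide glutathione to reactive, electron-poor compounds, which makes those compounds more soluble and ready for export from the cell. The cytosolic enzymes form classes named by Greek letters, here mu (Gstm), alpha (Gsta), pi (Gstp), theta (Gstt) and omega (Gsto), whereas Mgst1 and Mgst3 belong to the unrelated membrane-bound MAPEG family. Several GST genes are known targets of the transcription factor NRF2, which binds antioxidant response elements in their promoters. In skin, these enzymes are part of the defence against oxidative damage and foreign chemicals.

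Total counts ran from 36626221 to 43612804 per sample. Levels are given as CPM, each gene's count as a share of its library, scaled with trimmed-mean (TMM) factors of 0.968 to 1.03, and as mean ± SD over the 3 samples of a group. Fold changes, their standard errors (SE) and adjusted p-values come from edgeR's quasi-likelihood test over all 14542 genes with Benjamini-Hochberg adjustment, and a gene was called when the adjusted p was below 0.05. An exact permutation test of 3 against 3 samples cannot give a two-sided p below 0.1. In bulk samples such as these, fewer cells of a type and less RNA per cell cannot be told apart.

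The fibroblast label was checked against marker lists. All 12 fibroblast markers were detected, with summed levels of 75723 to 83706 CPM on 2-kPa elastic, 68625 to 71794 on 20-kPa elastic, 66392 to 70851 on 2-kPa viscoelastic and 58621 to 61158 on 20-kPa viscoelastic gels, most of it Fn1. The cultures also held cartilage transcripts. The 6 chondrocyte markers summed to 5155 to 6510, 4476 to 4571, 4715 to 6129 and 4928 to 6349 CPM in the same order of groups, with Col2a1 as 48.7% to 54.4% of the sum and Matn1 under 10 counts in every sample. The 6 Schwann cell markers, nearly all of it S100b, summed to 76.9 to 77.7, 45.9 to 49.8, 55.9 to 65.4 and 74.2 to 96.0 CPM. The adipocyte list summed to 19.0 to 40.3 CPM, mostly Cebpa, with Adipoq, Plin1, Lep and Cidec under 10 counts in every sample. The keratinocyte, endothelial, leukocyte and skeletal muscle lists each stayed at or below 10.6 CPM, with Krt14, Krt1, Cldn5, Adgre1, Tyrobp, Myog and Ckm under 10 counts in every sample. The part of these other cell types in the GST results was not tested.

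The summed GST transcripts were more abundant on viscoelastic than on elastic gels at both stiffnesses, also without Gstm1, whereas Gsto1 was lower there at 20 kPa. The 10 transcripts together came to 370 ± 8.97 CPM on 2-kPa viscoelastic gels, against 286 ± 1.47 CPM on the elastic gels of that stiffness. At 20 kPa the sum was 399 ± 17.2 CPM on viscoelastic gels, against 317 ± 9.61 CPM, which includes the rise by which Gstm1 was picked. Without Gstm1 the sums were 323 ± 6.77 against 255 ± 1.61 CPM at 2 kPa and 343 ± 16.01 against 290.0 ± 7.83 CPM at 20 kPa. The lowest viscoelastic sample of this sum of 9, at 318 CPM, lay above the highest elastic sample, at 299 CPM.

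At 2 kPa, Gstm1, Gstm2, Gstm5, Gstt1, Gsto1 and Mgst1 rose on viscoelastic gels and none of the 10 fell by edgeR (0 lower at an unadjusted p below 0.05 and 0 by DESeq2), whereas 8.77% of all tested genes were called higher and 11.1% lower, 19.9% in all. The members' median log2 fold change was 0.27, beside -0.00 over all tested genes. The samples of the 2 groups did not overlap for 8 of the 10 members and for 36.3% of all genes. Without Gstm1, 5 of 9 members were called higher, with a median of 0.23, and 7 of 9 did not overlap. At 20 kPa, 6 of the 9 members other than Gstm1 rose (Gstm2, Gstm5, Gsta4, Gstp1, Gstt3 and Mgst1) and Gsto1 fell, where 17.4% of all genes were called higher and 16.1% lower, 33.5% in all. The groups did not overlap for 8 of these 9 members and for 49.9% of all genes. The median was 0.49 without Gstm1 and 0.51 over all 10, beside 0.016 over all genes. This comparison holds the 20-kPa viscoelastic samples for which Gstm1 was picked.

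Gene length bore on these counts. Exon length was known for 94.0% of the tested genes, with a median of 4402 bases, and all 10 members were shorter, at 1097 to 3842 bases. A further fit removed the trend of the counts with gene length in each sample. The members' median log2 fold change was then 0.19 at 2 kPa and 0.33 at 20 kPa. Over all genes it was 0.0032 and 0.0057. Without Gstm1 the members' medians were 0.19 and 0.32. Of all 14542 tested genes, the fit called 1288 higher and 1359 lower at 2 kPa, and 2060 and 2062 at 20 kPa. That fit called 4 members higher and none lower at 2 kPa, without Gstm5 (adjusted p = 0.101) and Gsto1 (adjusted p = 0.141). At 20 kPa it called 4 of the 9 other members higher and 1 lower, without Gsta4 (adjusted p = 0.216) and Gstp1 (adjusted p = 0.0663).

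**Figure D1:**
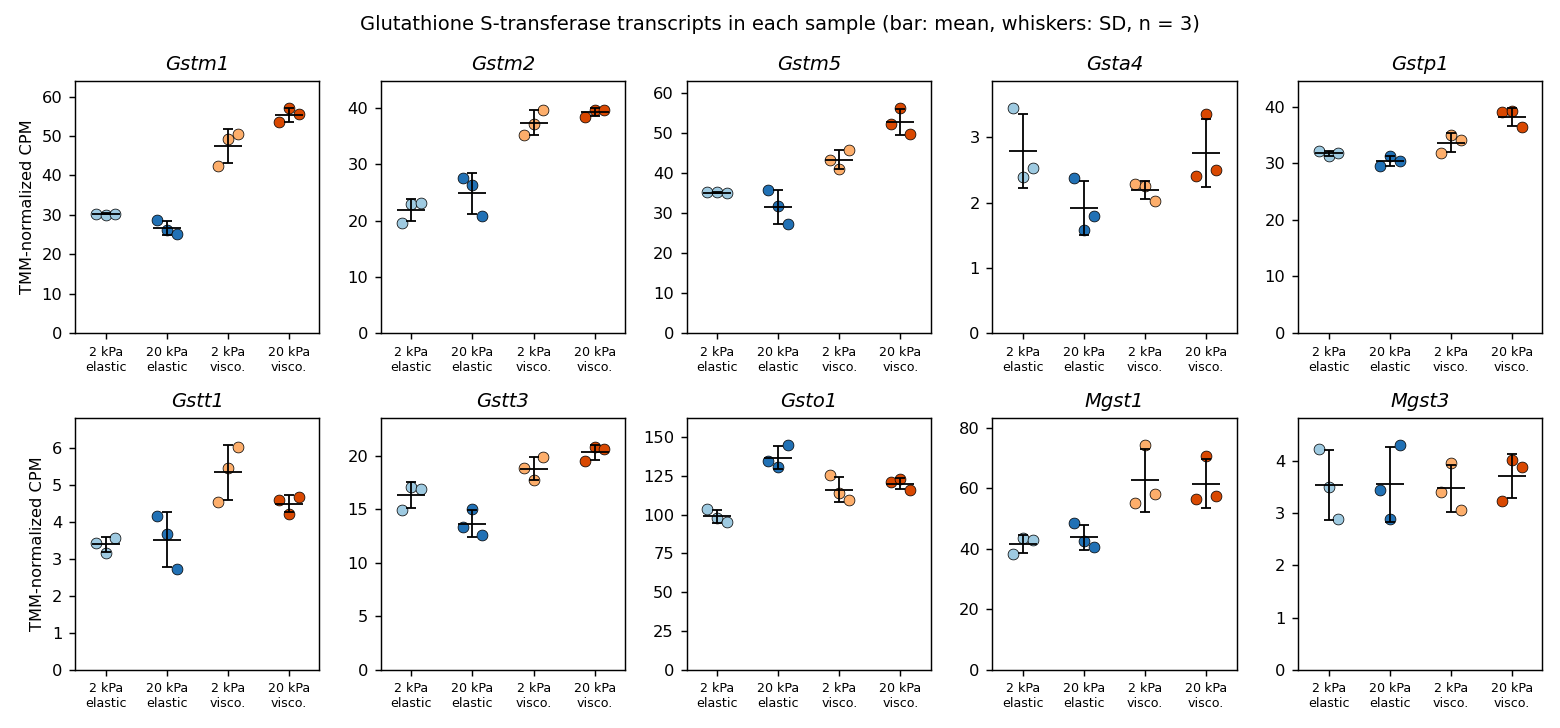
CPM of each of the 10 GST transcripts in each of the 12 samples, by gel group, on axes that start at 0. Points are samples, the horizontal bar is the mean and the whiskers are the SD (n = 3). Gstm1, Gstm2, Gstm5, Gstt1, Gstt3 and Mgst1 sit higher in all 6 viscoelastic samples than in all 6 elastic samples. The gap is narrow for Gstt1 (4.21 against 4.16 CPM) and Gstt3 (17.7 against 17.1 CPM). Gsto1 is highest on 20-kPa elastic gels, at 137 CPM.

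All 3 mu-class genes rose on viscoelastic gels at 2 kPa. Gstm1 encodes an abundant mu-class transferase with broad activity on aromatic and lipid-derived electrophiles. In the replicates of 2-kPa elastic gels it was at 30.3, 30.1 and 30.3 CPM, and on 2-kPa viscoelastic gels at 42.5, 49.3 and 50.5 CPM. On 20-kPa elastic gels it was at 28.7, 26.3 and 25.1 CPM, and on 20-kPa viscoelastic gels at 53.6, 57.0 and 55.6 CPM. The 4 groups did not overlap, and their order was 20-kPa elastic, 2-kPa elastic, 2-kPa viscoelastic and 20-kPa viscoelastic. In the comparison of the 2-kPa groups, Gstm1 was 1.57-fold higher on viscoelastic gels (log2 fold change 0.65, SE 0.0698, adjusted p = 4.25e-05 by edgeR). Gstm1 was chosen with earlier results of these data known, so this p-value is not independent of that choice. At 20 kPa, which holds the stiff viscoelastic samples of the pick, the viscoelastic level was 2.07-fold the elastic level (log2 1.05, SE 0.07).

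Gstm2, a closely related mu-class enzyme, was at 19.6, 23.0 and 23.1 CPM on 2-kPa elastic and at 35.3, 37.1 and 39.8 CPM on 2-kPa viscoelastic gels. It was at 27.6, 26.3 and 20.8 CPM on 20-kPa elastic and at 38.5, 39.7 and 39.8 CPM on 20-kPa viscoelastic gels. Every viscoelastic sample lay above every elastic sample, and the third 20-kPa elastic sample was the lowest of its group, within the range of the 2-kPa elastic samples. The rise was 1.71-fold at 2 kPa (log2 0.77, SE 0.0934, adjusted p = 0.000101) and 1.58-fold at 20 kPa (log2 0.66, SE 0.0924, adjusted p = 0.000196) by edgeR.

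Gstm5, the most divergent of the mu genes here, was at 35.2, 35.3 and 35.1 CPM on 2-kPa elastic and at 43.3, 41.0 and 45.8 CPM on 2-kPa viscoelastic gels. At 20 kPa it was on elastic gels at 35.8, 31.8 and 27.3 CPM, and on 20-kPa viscoelastic gels at 52.4, 56.3 and 49.8 CPM. The 20-kPa viscoelastic samples were the highest of all and did not overlap with the 2-kPa viscoelastic ones, and the third 20-kPa elastic sample was again the lowest. The rise was 1.23-fold at 2 kPa (log2 0.30, SE 0.0822, adjusted p = 0.0181) and 1.67-fold at 20 kPa (log2 0.74, SE 0.0822, adjusted p = 8.67e-05) by edgeR. The call at 2 kPa was lost without 2-kPa elastic replicate 1 (adjusted p = 0.0619) or 2 (0.0534) or 2-kPa viscoelastic replicate 3 (0.0742), as well as under the length fit.

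The mu genes lie side by side on mouse chromosome 3, and their promoters are shown because these neighbouring genes stood higher on viscoelastic gels together. In the mm10 build with the GENCODE M21 annotation, the tested mu genes lay in the order Gstm5, Gstm7, Gstm2, Gstm1 and Gstm4 within chr3:107895821-108044894, a stretch of 149074 bases. Gstm1 (ENSMUSG00000058135.12) is at chr3:108012255-108017973 on the minus strand, Gstm2 (ENSMUSG00000040562.12) at chr3:107981702-107986453 on the minus strand and Gstm5 (ENSMUSG00000004032.10) at chr3:107895821-107898686 on the plus strand, all protein-coding. The windows below run from 250 bases before to 50 bases after the transcription start and were taken from RefSeq on GRCm38.p6, the same build as mm10. They are written 5′ to 3′ on the gene's strand, with matches to the core of the antioxidant response element (TGACNNNGC) or to the AP-1 site (TGANTCA) in capitals, both strands searched. The Gstm1 window is chr3:108017924-108018223, the Gstm2 window chr3:107986371-107986670 and the Gstm5 window chr3:107895604-107895903. RefSeq gives Gstm1 a second window, chr3:108017769-108018068, which is not printed.
Gstm1: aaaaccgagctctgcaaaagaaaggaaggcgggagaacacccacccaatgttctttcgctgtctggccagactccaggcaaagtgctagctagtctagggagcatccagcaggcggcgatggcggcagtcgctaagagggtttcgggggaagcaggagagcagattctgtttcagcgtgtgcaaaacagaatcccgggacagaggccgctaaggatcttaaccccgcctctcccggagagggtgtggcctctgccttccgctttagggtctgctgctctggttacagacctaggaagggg
Gstm2: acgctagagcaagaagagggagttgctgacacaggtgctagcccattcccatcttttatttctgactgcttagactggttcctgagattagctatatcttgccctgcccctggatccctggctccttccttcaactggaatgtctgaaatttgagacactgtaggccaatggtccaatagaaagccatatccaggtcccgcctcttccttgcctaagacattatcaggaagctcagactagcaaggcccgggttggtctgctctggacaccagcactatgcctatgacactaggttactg
Gstm5: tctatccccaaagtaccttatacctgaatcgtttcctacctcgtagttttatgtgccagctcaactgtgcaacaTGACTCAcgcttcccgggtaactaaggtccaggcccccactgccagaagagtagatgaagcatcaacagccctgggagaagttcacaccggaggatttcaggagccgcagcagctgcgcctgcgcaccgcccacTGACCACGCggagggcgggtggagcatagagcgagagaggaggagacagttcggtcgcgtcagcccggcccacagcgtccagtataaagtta
The Gstm5 window held 1 match to each motif, TGACTCA at 176 and TGACCACGC at 42 bases before the start, which did not overlap. Neither motif matched in the Gstm2 window or in either Gstm1 window. Of 27025 mouse genes with such a window, 14.0% held the antioxidant response element core and 8.97% the AP-1 site in at least 1. RefSeq windows were found for 9 of the 10 members, all but Gsta4, and each motif matched in 2 of the 9: the former in Gstm5 and Mgst1, the latter in Gstm5 and Gstp1.

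Gstm4 and Gstm7, the tested mu genes of the cluster outside the list, were read at a lower level than the 3 members. Gstm4 rose from 6.27 ± 0.386 to 9.67 ± 0.686 CPM at 2 kPa (log2 0.62, edgeR adjusted p = 0.000948) and from 6.68 ± 0.797 to 9.03 ± 0.727 CPM at 20 kPa (log2 0.43, adjusted p = 0.00499). Gstm7 was at 0.874 ± 0.138 and 1.05 ± 0.0849 CPM at 2 kPa (log2 0.26, adjusted p = 0.457) and rose from 0.843 ± 0.263 to 1.37 ± 0.218 CPM at 20 kPa (log2 0.69, adjusted p = 0.0272). Of 19 refits with another setting or without 1 sample, the call at 20 kPa was lost for Gstm4 in 1 (0.26 under the length fit, adjusted p = 0.0643) and Gstm7 in 6 (0.51 under the length fit, adjusted p = 0.103).

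**Figure D2:**
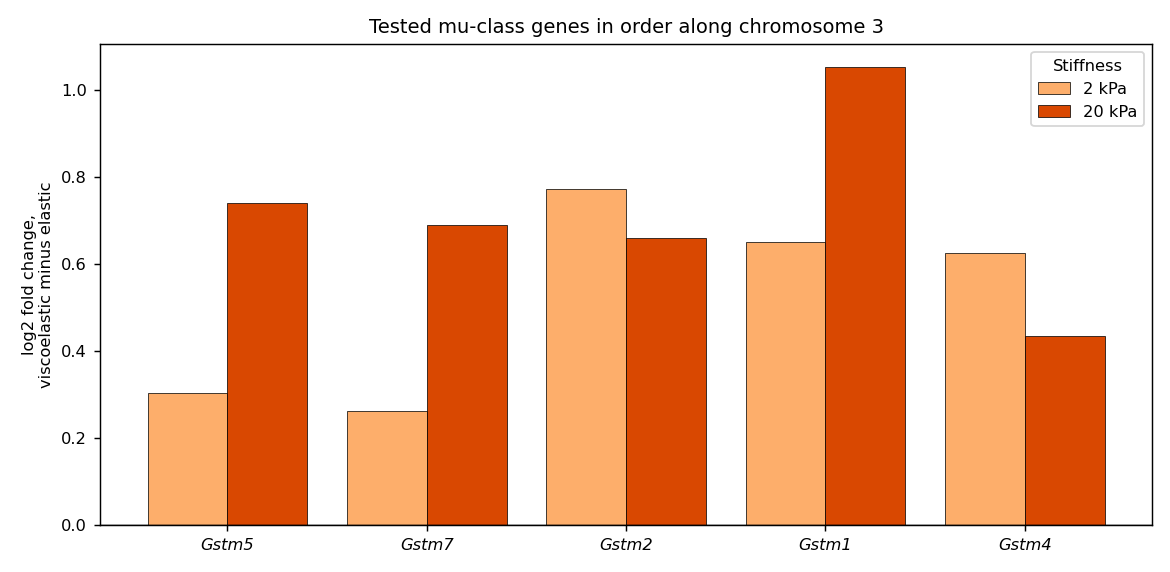
Log2 fold change, viscoelastic minus elastic, of the 5 tested mu-class genes in their order along chromosome 3; paired bars are 2 kPa and 20 kPa. All 5 have positive values at both stiffnesses, from 0.26 to 1.05.

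Sequence shared between relatives limits how far reads of these genes can be told apart, and how the study's counting treated reads with several matches was not given in the sources used here. Of all 50-base windows in Gstm1 transcripts, 19.9% also occurred in another gene, mainly the pseudogene Gstm2-ps1 and Gstm3. The share was 8.30% for Gstm2 and 12.2% for Gstm5, where all of it was overlap with the antisense gene 4933431E20Rik. Gstm3 itself had 0 counts in 11 samples and its highest level was 0.0234 CPM. The coding sequences of Gstm1 and Gstm2 were identical at 85.9% of positions, those of Gstm1 and Gstm5 at 69.6%.

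The single pi-class member, Gstp1, rose on viscoelastic gels at 20 kPa. Pi-class transferase is the form often abundant in cultured and tumour cells. It was at 32.2, 31.3 and 31.9 CPM on 2-kPa elastic and at 31.8, 35.1 and 34.1 CPM on 2-kPa viscoelastic gels, groups that overlapped. On 20-kPa elastic gels it was at 29.5, 31.2 and 30.4 CPM, and on 20-kPa viscoelastic gels at 39.1, 39.2 and 36.4 CPM, which did not overlap and were the highest of the 12. The difference was 1.26-fold at 20 kPa (log2 0.33, SE 0.0566, adjusted p = 0.000621), and at 2 kPa the log2 fold change was 0.083 (95% interval -0.03 to 0.19, adjusted p = 0.324) by edgeR. Gstp1 (ENSMUSG00000060803.6, chr19:4035407-4037985, minus strand) has a near copy, Gstp2, with 98.1% identical coding sequence. Of its 50-base windows 51.0% also occurred in another gene, Gstp2 in all cases, so the count is uncertain, and Gstp2 was listed at no more than 0.283 CPM. The promoter window of Gstp1, chr19:4037863-4038162, is shown for its AP-1 match, TGAGTCA, at 74 bases before the start.
Gstp1: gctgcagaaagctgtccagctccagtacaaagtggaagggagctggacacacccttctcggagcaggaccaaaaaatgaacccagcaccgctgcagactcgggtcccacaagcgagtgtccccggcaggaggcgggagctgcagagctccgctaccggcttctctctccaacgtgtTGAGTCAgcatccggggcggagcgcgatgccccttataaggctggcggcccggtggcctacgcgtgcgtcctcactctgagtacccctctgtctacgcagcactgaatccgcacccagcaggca

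Gsta4, the alpha-class enzyme known for clearing the lipid peroxidation product 4-hydroxynonenal, was the least abundant member per length. It was at 3.45, 2.40 and 2.53 CPM on 2-kPa elastic and at 2.29, 2.26 and 2.03 CPM on 2-kPa viscoelastic gels. At 20 kPa the elastic samples were at 2.38, 1.57 and 1.80 CPM, and on 20-kPa viscoelastic gels at 2.41, 3.37 and 2.51 CPM. At 2 kPa every viscoelastic sample lay below every elastic sample, and at 20 kPa every viscoelastic sample lay above every elastic one. The log2 fold change at 2 kPa was -0.35 (SE 0.189, adjusted p = 0.203), and Gsta4 rose 1.44-fold at 20 kPa (log2 0.53, SE 0.191, adjusted p = 0.0452) by edgeR. That call was lost in 10 of 20 alternatives, with adjusted p up to 0.216, among them without replicate 3 of any group or replicate 2 of either 20-kPa group. Gsta4 (ENSMUSG00000032348.6) is at chr9:78182774-78209349 on the plus strand.

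The 2 theta-class members, enzymes that act on small halogenated compounds and epoxides, differed in which stiffness passed the test. Gstt1 was at 3.43, 3.16 and 3.57 CPM on 2-kPa elastic and at 4.53, 5.45 and 6.01 CPM on 2-kPa viscoelastic gels. On 20-kPa elastic gels it was at 4.16, 3.67 and 2.71 CPM, and on 20-kPa viscoelastic gels at 4.59, 4.21 and 4.67 CPM. The third 20-kPa elastic sample was the lowest of the 12, and neither pair of gel types overlapped. Gstt1 rose 1.58-fold at 2 kPa (log2 0.66, SE 0.147, adjusted p = 0.00657), and at 20 kPa its log2 fold change was 0.35 (95% interval 0.061 to 0.64, adjusted p = 0.0808) by edgeR.

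Gstt3 was more abundant, at 15.0, 17.1 and 16.9 CPM on 2-kPa elastic and 18.8, 17.7 and 19.9 CPM on 2-kPa viscoelastic gels. The 20-kPa elastic samples were at 13.3, 15.1 and 12.6 CPM, and on 20-kPa viscoelastic gels at 19.6, 20.9 and 20.6 CPM. The gel types did not overlap at either stiffness, and the gap was wider at 20 kPa. Gstt3 rose 1.49-fold at 20 kPa (log2 0.57, SE 0.0798, adjusted p = 0.000187), and at 2 kPa its log2 fold change was 0.21 (95% interval 0.049 to 0.36, adjusted p = 0.0814) by edgeR. For neither gene did the interaction of stiffness and gel type pass the test (adjusted p = 0.429 for Gstt1 and 0.0597 for Gstt3), so a difference between the stiffnesses was not shown. The genes are neighbours, Gstt1 (ENSMUSG00000001663.10) at chr10:75783813-75798584 and Gstt3 (ENSMUSG00000001665.11) at chr10:75774115-75781414, both on the minus strand, with 75.4% identical coding sequence. Of the 50-base windows of Gstt3, 20.6% were shared, mostly with the overlapping gene Gm20441, and none of those of Gstt1.

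Gsto1, the omega-class enzyme, works as a thioltransferase and dehydroascorbate reductase more than as a conjugating enzyme, and it ordered the groups differently from the other members. It was at 104, 98.0 and 95.4 CPM on 2-kPa elastic and at 125, 114 and 109 CPM on 2-kPa viscoelastic gels. The stiff elastic samples were at 134, 130 and 145 CPM, and on 20-kPa viscoelastic gels at 121, 123 and 116 CPM. The 2-kPa elastic samples were the 3 lowest and the 20-kPa elastic samples the 3 highest of the 12, with the viscoelastic groups between them and overlapping each other. Gsto1 rose 1.17-fold on viscoelastic gels at 2 kPa (log2 0.23, SE 0.0637, adjusted p = 0.0198) and fell at 20 kPa to 0.878 of the elastic level (log2 -0.19, SE 0.0635, adjusted p = 0.0333) by edgeR. The fall was not called with total counts as the only scaling (adjusted p = 0.0684), without 20-kPa elastic replicate 3 (0.15), or without 20-kPa viscoelastic replicate 1 (0.0656), 2 (0.0517) or 3 (0.119). The rise at 2 kPa was not called without 2-kPa elastic replicate 2 (adjusted p = 0.0675) or 3 (0.0688) or 2-kPa viscoelastic replicate 1 (0.0672). Gsto1 (ENSMUSG00000025068.8, chr19:47854970-47864790, plus strand) shared no 50-base window with another gene, and no match to either motif was found in its promoter window.

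Mgst1, a membrane-bound transferase of the endoplasmic reticulum and outer mitochondrial membrane with peroxidase activity toward lipid hydroperoxides, rose at both stiffnesses. It was at 38.1, 43.5 and 43.0 CPM on 2-kPa elastic and at 55.3, 74.5 and 58.2 CPM on 2-kPa viscoelastic gels. On 20-kPa elastic gels it was at 48.4, 42.5 and 40.6 CPM, and on 20-kPa viscoelastic gels at 56.5, 70.9 and 57.4 CPM. All 6 viscoelastic samples lay above all 6 elastic samples, and the second sample of each viscoelastic group stood well above the others of its group. The rise was 1.51-fold at 2 kPa (log2 0.59, SE 0.113, adjusted p = 0.00239) and 1.41-fold at 20 kPa (log2 0.49, SE 0.112, adjusted p = 0.00411) by edgeR. Mgst1 (ENSMUSG00000008540.11) is at chr6:138140316-138156755 on the plus strand. A promoter window, chr6:138140277-138140576, is shown for the antioxidant response element core on the reverse strand. It reads GCACGGTCA on the gene's strand, at 56 bases before the start. The second RefSeq window of Mgst1, chr6:138141337-138141636, held no match to either motif and is not printed.
Mgst1: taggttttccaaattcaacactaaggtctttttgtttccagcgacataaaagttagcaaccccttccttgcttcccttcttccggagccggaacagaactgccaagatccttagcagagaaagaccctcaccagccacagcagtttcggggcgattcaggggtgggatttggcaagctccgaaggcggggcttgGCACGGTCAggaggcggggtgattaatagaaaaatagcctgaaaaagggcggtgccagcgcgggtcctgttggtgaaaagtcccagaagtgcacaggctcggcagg
Mgst3, a related membrane protein that acts on leukotrienes and lipid peroxides, was at 2.88 to 4.31 CPM over the 12 samples with overlapping groups throughout. Its log2 fold change was -0.03 at 2 kPa (95% interval -0.37 to 0.30, adjusted p = 0.918) and 0.065 at 20 kPa (95% interval -0.27 to 0.40, adjusted p = 0.796) by edgeR.

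**Figure D3:**
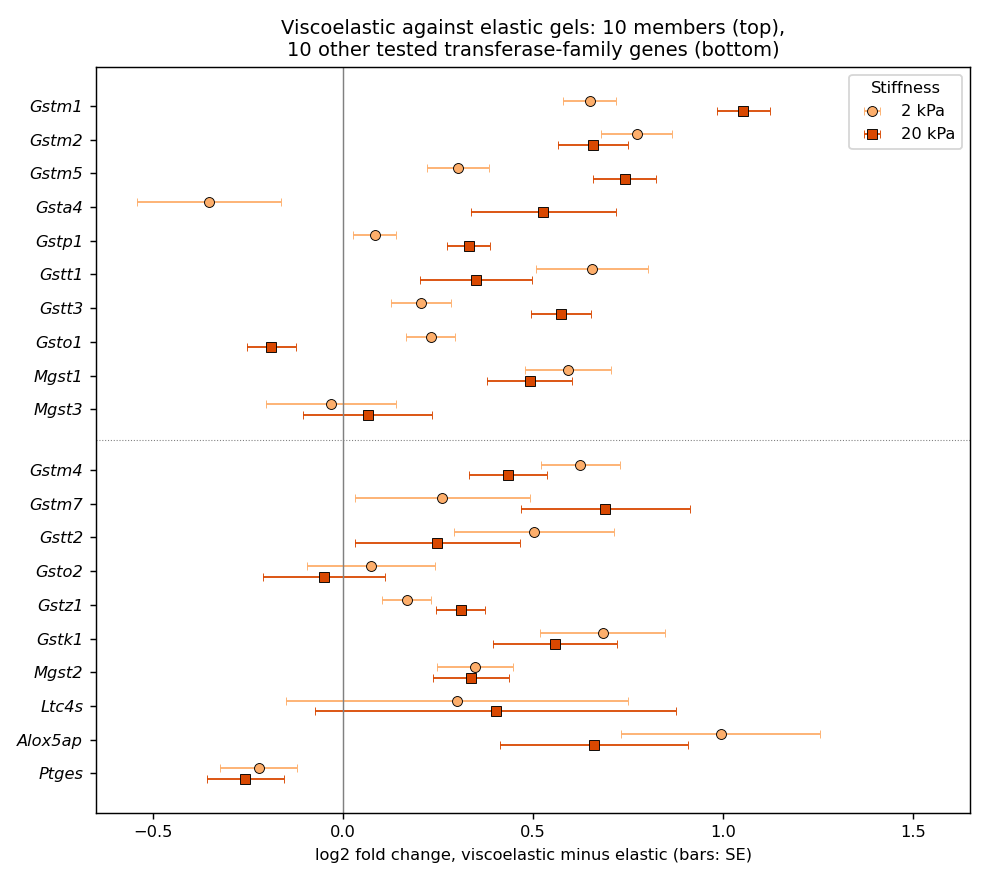
Log2 fold change, viscoelastic minus elastic, at 2 kPa (circles) and 20 kPa (squares), with SE bars, for the 10 members (above the dotted line) and the other 10 transferase-family genes tested (below it). Gstm1, Gstm2, Gstm5, Gstp1, Gstt1, Gstt3 and Mgst1 lie above 0 at both stiffnesses. Gsto1 changes side from 0.23 to -0.19, Gsta4 from -0.35 to 0.53, and Mgst3 stays near 0.

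Per length, Gsto1 was the most abundant transcript, at a mean of 58.3 CPM per kilobase of exon over the 12 samples. The next on this scale were Gstm5 at 31.9, Gstm1 at 27.1, Mgst1 at 26.0, Gstp1 at 21.7 and Gstm2 at 18.4. Far lower stood Gstt3 at 4.50, Mgst3 at 3.26, Gstt1 at 2.74 and Gsta4 at 1.91. The sample ranges of Gstm5, from 21.3 to 44.1, and Gstm1, from 17.0 to 38.7, overlapped, as did those of Mgst1, Gstp1 and Gstm2. Within each of the 12 samples, however, Gstm2 was below Gstm5, Gstm1 and Mgst1. Gstm5 was below Gstm1 only in 2-kPa viscoelastic replicate 2, at 32.1 against 33.5. Other pairs among these 5 neighbours were not compared sample by sample. The share of the summed per-length level that came from Gsto1 was 30.0% on 2-kPa elastic, 38.2% on 20-kPa elastic, 27.1% on 2-kPa viscoelastic and 25.7% on 20-kPa viscoelastic gels. The share of Gstm1 was 12.6%, 10.2%, 15.2% and 16.3% in the same order.

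**Figure D4:**
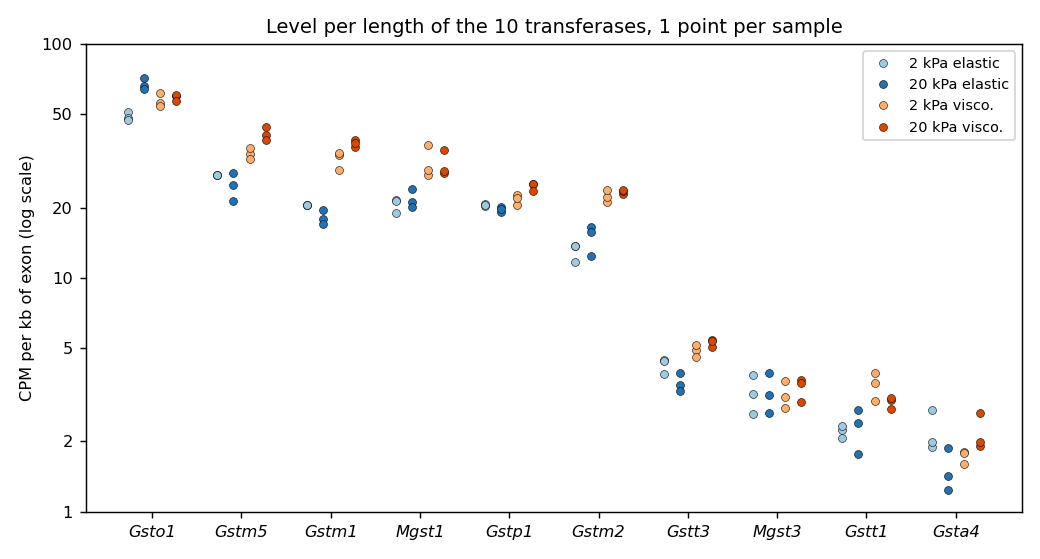
CPM per kilobase of exon of each member in each sample, on a log scale, with the members ordered by their mean over the 12 samples and coloured by gel group. Gsto1 lies above all other members in every group, 5 members lie between 11.7 and 44.1, and Gstt3, Mgst3, Gstt1 and Gsta4 lie at 5.44 or below.

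Stiffness on elastic gels moved 2 of the members other than Gstm1, beside 14% of all tested genes, 6.81% higher and 7.14% lower. Gsto1 rose from 99.0 ± 4.16 CPM at 2 kPa to 137 ± 7.50 CPM at 20 kPa, 1.38-fold (log2 0.46, SE 0.0637, adjusted p = 0.000318 by edgeR), without overlap. Gstt3 fell from 16.3 ± 1.20 to 13.7 ± 1.27 CPM (log2 -0.25, SE 0.0808, adjusted p = 0.048 by edgeR), with the highest 20-kPa sample at 15.1 CPM just above the lowest 2-kPa sample at 15.0 CPM. The Gsto1 call held in 20 of 20 alternatives and the Gstt3 call in 3 of 20, the fits without 2-kPa elastic replicate 1, 20-kPa elastic replicate 2 or 2-kPa viscoelastic replicate 2. Without Gstm1, the stiffness groups did not overlap for Gsta4, Gstp1 and Gsto1, 3 of 9 members, beside 35.6% of all genes. Gsta4 had a log2 fold change of -0.54 (SE 0.191, adjusted p = 0.0724) and Gstm2 of 0.18 (adjusted p = 0.211). Gstm2 passed the test without 20-kPa elastic replicate 3 (log2 0.30, adjusted p = 0.0348). The level of Gstm1 at 20 kPa was 0.883 of that at 2 kPa, given as a description.

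On viscoelastic gels none of the 9 members other than Gstm1 was called for stiffness, beside 2.28% of all tested genes and 19% with an unadjusted p below 0.05, which 2 of the 9 members other than Gstm1 also had. The log2 fold changes from 2 to 20 kPa ran from -0.25 (Gstt1) to 0.33 (Gsta4). Gstm5 was nearest to the threshold (log2 0.28, SE 0.0811, adjusted p = 0.0744 by edgeR), followed by Gstp1 (log2 0.18, adjusted p = 0.0946). Gstm5 was called with no filter on low counts (adjusted p = 0.0302), by DESeq2 (0.0372) and without 20-kPa elastic replicate 3 (0.0375). The approximate 95% intervals still reached a log2 change of 0.44 for Gstm5 and 0.17 for Gsto1. Without Gstm1, the stiffness groups did not overlap for Gstm5, Gsta4 and Gstp1, 3 of 9 members, beside 22.3% of all genes. Gstm1 was 1.17-fold at 20 kPa against 2 kPa, again as a description.

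**Figure D5:**
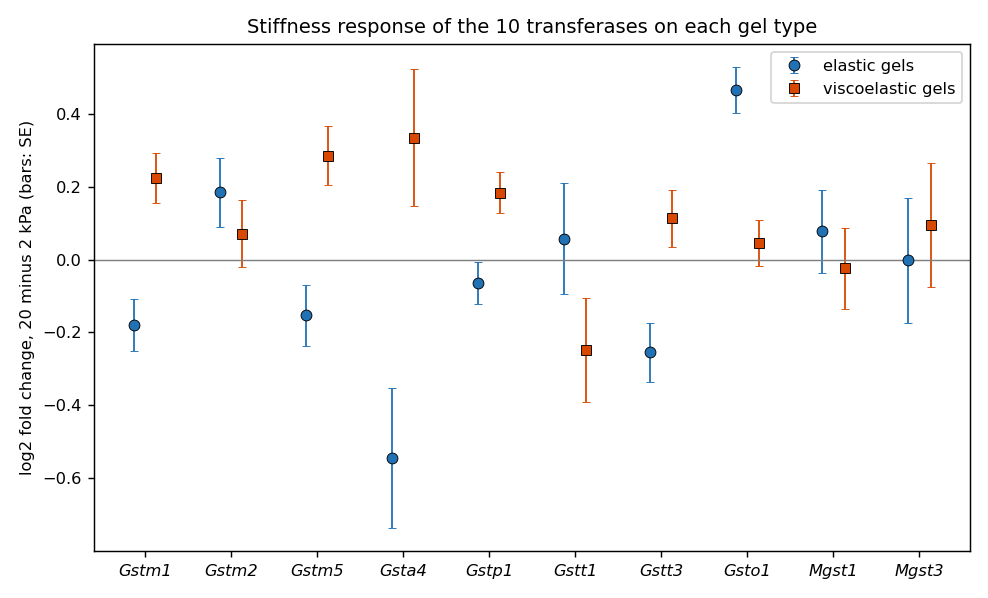
Log2 fold change from 2 to 20 kPa on elastic (circles) and viscoelastic gels (squares), with SE bars, for the 10 members. Gsto1 stands at 0.46 on elastic and 0.046 on viscoelastic gels, and Gstm1, Gstm5, Gsta4, Gstp1 and Gstt3 are below 0 on elastic and above 0 on viscoelastic gels.

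Whether the gel-type difference itself depended on stiffness was tested as an interaction, the viscoelastic-minus-elastic log2 difference at 20 kPa minus that at 2 kPa. Of the 9 members other than Gstm1, Gstm5 was called with a wider difference at 20 kPa (log2 0.44, SE 0.116, adjusted p = 0.0324) and Gsto1 with an opposite one (log2 -0.42, SE 0.09, adjusted p = 0.0108) by edgeR, beside 7.56% of all tested genes, 4.45% positive and 3.12% negative. The Gsto1 interaction stayed below 0.05 in all 19 alternatives, with adjusted p of at most 0.0353. The Gstm5 interaction was lost in 11 of 19, with adjusted p up to 0.0721, including the length fit (0.0671) and 9 of the 12 fits without 1 sample. The 3 that kept it were those without 20-kPa elastic replicate 1, 2-kPa viscoelastic replicate 3 or 20-kPa viscoelastic replicate 3. Gsta4 (0.88, SE 0.268, adjusted p = 0.0597), Gstt3 (0.37, SE 0.113, adjusted p = 0.0597) and Gstp1 (0.25, SE 0.0801, adjusted p = 0.0749) did not pass. The value for Gstm1 was 0.40. The 4 comparisons share samples pairwise, so their values are set side by side and no overlap between them is drawn as a result.

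The remaining genes of the transferase family in the count table were taken as a list of 20, of which 19 were listed and 10 passed the filter. At 2 kPa, 4 of the 10 rose on viscoelastic gels and none fell (1 lower at an unadjusted p below 0.05, 0 by DESeq2), beside 8.77% of all tested genes called higher and 11.1% lower, with a median log2 fold change of 0.32. These were Gstm4, the mitochondrial and peroxisomal kappa-class Gstk1 (3.55 ± 0.0657 to 5.70 ± 0.321 CPM, adjusted p = 0.00938), Mgst2 (7.03 ± 0.196 to 8.95 ± 1.35 CPM, adjusted p = 0.0228) and the leukotriene pathway protein Alox5ap (0.437 ± 0.0828 to 0.871 ± 0.237 CPM, adjusted p = 0.0156), all by edgeR. At 20 kPa, 5 of the 10 rose and none fell, beside 17.4% and 16.1%, with a median of 0.37. Gstm4, Gstm7, Gstk1 (3.70 ± 1.13 to 5.46 ± 0.187 CPM, adjusted p = 0.017) and Mgst2 (6.72 ± 0.211 to 8.49 ± 0.14 CPM, adjusted p = 0.0174) were joined by Gstz1, which isomerizes maleylacetoacetate in tyrosine breakdown (28.8 ± 1.42 to 35.7 ± 1.38 CPM, adjusted p = 0.00252). The prostaglandin synthase Ptges had log2 fold changes of -0.22 (adjusted p = 0.131) and -0.26 (adjusted p = 0.0614) at 2 and 20 kPa. None of these 10 genes was called for stiffness on either gel type or for the interaction by edgeR or DESeq2. By edgeR, 14%, 2.28% and 7.56% of all tested genes were called for elastic stiffness, viscoelastic stiffness and the interaction. At an unadjusted p below 0.05 stood 0 of the 10 in each, beside 19% of all tested genes for viscoelastic stiffness. The unadjusted share over all genes was not computed for elastic stiffness and the interaction. At 20 kPa DESeq2 called 5 higher and also 1 lower, Ptges. Of the 19 refits, the 2-kPa call was lost for Mgst2 in 5 (0.23 without 2-kPa viscoelastic replicate 2, adjusted p = 0.098) and Alox5ap in 2 (0.75 without 2-kPa viscoelastic replicate 3, adjusted p = 0.0814), and the 20-kPa call for Gstk1 in 2 (0.37 under the length fit, adjusted p = 0.0941) and Mgst2 in 2 (0.31 without 20-kPa elastic replicate 3, adjusted p = 0.064).

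Genes around the transferases in glutathione metabolism moved in both directions. Their counts are to be read beside the shares over all tested genes, 8.77% higher and 11.1% lower at 2 kPa and 17.4% higher and 16.1% lower at 20 kPa. Of 19 tested genes of glutathione synthesis and turnover, 4 rose and none fell on viscoelastic gels at 2 kPa (0 lower by DESeq2, 1 at an unadjusted p below 0.05), and 3 rose and 2 fell at 20 kPa, near the share over all genes. Gclm, the modifier subunit of the rate-limiting ligase of glutathione synthesis, rose at 2 kPa from 58.1 ± 7.29 to 78.6 ± 6.45 CPM (log2 0.44, adjusted p = 0.0026 by edgeR), whereas the catalytic subunit Gclc had a log2 fold change of -0.03. Cth, which makes cysteine, rose from 3.13 ± 0.541 to 4.86 ± 0.234 CPM (log2 0.63, adjusted p = 0.00362), and Chac1, which degrades glutathione, from 5.44 ± 1.37 to 8.57 ± 0.45 CPM (log2 0.66, adjusted p = 0.0133). At 20 kPa the peptidases Anpep (log2 0.85, adjusted p = 0.000378) and Dpep1 (log2 1.04, adjusted p = 0.000851) and the transpeptidase Ggt5 (log2 0.47, adjusted p = 0.0211) rose. Ggct (log2 -0.45, adjusted p = 0.00362) and the cystine importer subunit Slc7a11 (log2 -0.59, adjusted p = 0.0309) fell. Of the 19 refits, the call was lost for Slc7a11 in 7 (-0.34 without 20-kPa elastic replicate 3, adjusted p = 0.192), Ggt5 in 3 (0.35 without 20-kPa elastic replicate 3, adjusted p = 0.101) and Chac1 in 2 (0.47 without 2-kPa elastic replicate 1, adjusted p = 0.0679).

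The list of peroxidases and glutaredoxins also held other enzymes that act on glutathione compounds, such as Esd and Hagh. Its 13 tested genes gave 4 higher and 1 lower at 2 kPa, beside 8.77% and 11.1% of all genes. At 20 kPa 8 were higher and 1 lower, beside 17.4% and 16.1%. Gpx3, the secreted glutathione peroxidase, rose from 795 ± 117 to 1231 ± 113 CPM at 2 kPa (log2 0.63, adjusted p = 0.00736 by edgeR) and by 0.73 on the log2 scale at 20 kPa (adjusted p = 0.00174). The other examples were Esd at 2 kPa (log2 0.40, adjusted p = 0.00322), Hagh at 20 kPa (log2 0.43, adjusted p = 0.000614) and Glrx3 at both (log2 0.26 and 0.32, adjusted p = 0.00535 and 0.000693). The glutaredoxin Glrx fell at 20 kPa (log2 -0.48, adjusted p = 0.0017). Prdx6 fell at 2 kPa (log2 -0.22, adjusted p = 0.0305) and rose at 20 kPa (log2 0.24, adjusted p = 0.0121), with an interaction of 0.46 (adjusted p = 0.00797). Of the 19 refits, the 2-kPa call was lost for Prdx6 in 6 (-0.18 with total counts alone, adjusted p = 0.0677).

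Of 8 tested genes for the export of glutathione conjugates, 1 rose and 1 fell at 2 kPa (Abcc5, log2 0.37, adjusted p = 0.0151, and Abcc4, log2 -0.26, adjusted p = 0.038, by edgeR), near the 8.77% and 11.1% over all genes. At 20 kPa 1 rose and 2 fell, beside 17.4% and 16.1% over all genes: Abcc1, the main glutathione conjugate pump of many cells, fell from 158 ± 31.7 to 107 ± 5.20 CPM (log2 -0.57, adjusted p = 0.00117) and Abcg2 fell (log2 -0.26, adjusted p = 0.018). Of the 19 refits, the call was lost for Abcc4 in 9 (-0.21 under the length fit, adjusted p = 0.0825), Abcc5 in 4 (0.30 without 2-kPa viscoelastic replicate 2, adjusted p = 0.0554) and Abcg2 in 4 (-0.18 under the length fit, adjusted p = 0.107), and the replicate block gave an adjusted p of 0.0573 for Abcc4.

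Of 25 genes of NRF2 control and its targets, 6 rose and 3 fell at 2 kPa, beside 8.77% and 11.1% of all genes, and 5 rose and 4 fell at 20 kPa, near the 17.4% and 16.1% over all genes. Hmox1, which breaks down heme, rose at 2 kPa from 145 ± 23.2 to 257 ± 9.66 CPM (log2 0.83, adjusted p = 0.000906 by edgeR), as did G6pdx (log2 0.32, adjusted p = 0.00104) and the small MAF protein Maff (log2 0.70, adjusted p = 0.000509). The genes that fell there were all transcription factors: Nfe2l2, which encodes NRF2, from 207 ± 5.25 to 179 ± 7.52 CPM (log2 -0.21, adjusted p = 0.0125), its relative Nfe2l1 (log2 -0.24, adjusted p = 0.00924) and the repressor Bach1 (log2 -0.27, adjusted p = 0.00499). At 20 kPa Cbr1 (log2 0.45, adjusted p = 0.000281), Aldh3a1 (log2 0.92, adjusted p = 0.00375) and the ferritin subunit Fth1 (log2 0.45, adjusted p = 0.0169) rose, and Txnrd1, thioredoxin reductase, fell from 229 ± 35.9 to 158 ± 10.7 CPM (log2 -0.54, adjusted p = 0.00123). Maff and Bach1 also fell there (log2 -0.29 and -0.17, adjusted p = 0.0356 and 0.0347). Of the 19 refits, the 20-kPa call was lost for Maff in 7 (-0.19 without 20-kPa elastic replicate 3, adjusted p = 0.183), Bach1 in 9 (-0.12 under the length fit, adjusted p = 0.148) and Fth1 in 2 (0.41 without 20-kPa elastic replicate 3, adjusted p = 0.0624), and the 2-kPa call for Nfe2l2 in 4 (-0.17 without 2-kPa viscoelastic replicate 3, adjusted p = 0.0587), and the replicate block gave an adjusted p of 0.0525 for Maff. Between elastic gels of 2 and 20 kPa, the genes of these lists with the smallest p in each direction were all past the threshold. Their log2 fold changes were 0.59 (Cth) and -0.36 (Oplah) in synthesis and turnover, and 0.41 (Esd) and -0.24 (Prdx6) in the peroxidase list. They were 0.35 (Abcg2, higher only) in export, and 0.94 (Maff) and -0.23 (Nfe2l1) among NRF2 genes. Of the 19 refits, that call was lost for Prdx6 in 4 (-0.18 without 20-kPa elastic replicate 1, adjusted p = 0.117) and Nfe2l1 in 3 (-0.21 without 2-kPa elastic replicate 2, adjusted p = 0.067). None of the genes in these 4 lists was called by edgeR between 2 and 20 kPa on viscoelastic gels, beside 2.28% of all genes. An unadjusted p below 0.05 was found for 19% of all tested genes, in both directions together. At that threshold, 3 were higher and 1 lower in synthesis and turnover, and 4 and 0 in the peroxidase list. Export had 1 and 2, and NRF2 genes 4 and 2. In the same order of lists, DESeq2 called 1 and 0, 2 and 0, 0 and 2, and 1 and 1. Over all genes DESeq2 called 757 here, against 331 by edgeR. Between the stiffnesses of elastic gels, synthesis and turnover gave 3 higher and 2 lower, and the peroxidase list 1 and 1. Export gave 2 and 0 and NRF2 genes 5 and 3. The shares of all genes were 6.81% and 7.14%.

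Genes whose pattern over the 12 samples was nearest to that of Gstm1 were ranked by the root-mean-square difference of log2 CPM after centring each gene on its mean. The nearest of 14541 genes were Adhfe1 (0.113), Gas6 (0.130), Spa17 (0.154), Sntg2 (0.156) and Pced1b (0.156). Among the other members, Gstm2 came 17th (0.175) and Gstm5 29th (0.182), followed by Mgst1 at rank 130, Gstt3 at 271, Gstt1 at 425 and Gstp1 at 1301. Gsta4, Mgst3 and Gsto1 were far down, at ranks 5741, 7110 and 8383. These distances describe the pattern for which Gstm1 was picked.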

How the data were processed

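Poly-A RNA was sequenced from 12 samples, 4 gel groups of 3. The authors trimmed reads with Trimmomatic, aligned them to mm10 with STAR and assigned them to GENCODE genes with featureCounts, and deposited the raw counts. The release, the strand setting and the treatment of reads with several matches were not given in the sources used here. Groups came from the labels. The members and gene lists were chosen with earlier results of these data known.

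Counts were analysed as deposited with edgeR 4.0.16 in R 4.3.3: filterByExpr (minimum count 10, minimum total 15), TMM factors, 1 coefficient per group over all 12 samples, and quasi-likelihood tests with Benjamini-Hochberg adjustment over 14542 genes. The common biological coefficient of variation was 7.50%. Replicates of a group differed by 11.2 to 55.5 times their counting variance, so none was a copy. DESeq2 1.42.0 was an alternative. Log2 CPM used a prior count of 2. Exon lengths and positions came from GENCODE M21, matched by symbol for 27747 genes, and promoters from RefSeq. The length fit subtracted each sample's trend with log exon length. Scripts were tested on simulated counts. The genes flanking the mu cluster and 1 gene of the export list are not reported here. Named pathway genes were at most 3 in each direction per list and comparison, 1 for stiffness on elastic gels, by smallest p among those called. Of these, Cth, Oplah, Esd, Prdx6, Abcg2, Maff and Nfe2l1 were the ones for stiffness.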

Additional observations from a re-analysis of the deposited data

Results flagged for a closer look

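Gstm5 and Gsto1 stood out because their viscoelastic-minus-elastic difference itself differed between 2 and 20 kPa in the test of the interaction, with log2 values of 0.44 and -0.42 (edgeR adjusted p = 0.0324 and 0.0108). The Gstm5 call was lost in 11 of 19 alternatives, whereas Gsto1 stayed at an adjusted p of at most 0.0353 in all 19. Gsta4 stood out because its samples moved in opposite directions: every 20-kPa sample lay below the 2-kPa samples on elastic gels and above them on viscoelastic gels, and the gel types were likewise reversed between stiffnesses (interaction 0.88, adjusted p = 0.0597). For Gstp1 and Gstt3, every 20-kPa sample lay on 1 side of the 2-kPa mean on elastic gels and on the other side on viscoelastic gels (interaction 0.25, adjusted p = 0.0749, and 0.37, adjusted p = 0.0597). The interaction was tested for these 3 genes and did not pass, so a difference was not shown for them.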

How the results depend on the processing

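Of the calls in the gel-type comparisons, those of Gstm1, Gstm2, Gstt1 and Mgst1 at 2 kPa and of Gstm2, Gstm5, Gstt3 and Mgst1 at 20 kPa held in all 20 alternatives, as did that of Gsto1 for stiffness on elastic gels. Members called for stiffness on elastic gels numbered 2, and 1 (Gsto1) with DESeq2 size factors, total counts alone, the length fit, only the 2 groups compared, the DESeq2 Wald test and an adjusted p below 0.01. On viscoelastic gels the number was 0, and 1 (Gstm5) with every gene tested and with the DESeq2 Wald test. For the interaction it was 2, 3 with every gene tested and with the DESeq2 Wald test, 1 with the length fit and 0 at an adjusted p below 0.01. Counts that use 20-kPa samples are over the 9 members other than Gstm1. Leaving out 1 sample gave 4 to 6 members at 2 kPa, 5 to 8 at 20 kPa, 1 to 2 and 0 to 1 for stiffness on elastic and viscoelastic gels, and 1 to 3 for the interaction (1 without 2-kPa elastic replicate 2 or 3, 20-kPa elastic replicate 3, 2-kPa viscoelastic replicate 1 or 20-kPa viscoelastic replicate 1 or 2).

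Over all genes, 2892 and 4866 were called between gel types at 2 and 20 kPa, 2029 and 331 for stiffness on elastic and viscoelastic gels and 1100 for the interaction. An adjusted p below 0.01 gave 1352, 2733, 855, 9 and 400. Leaving out 1 sample gave 1545 to 3085, 3177 to 5381, 1063 to 2369, 9 to 351 and 670 to 1182. The lowest counts came without 2-kPa elastic replicate 1 (1545 and 670), 20-kPa elastic replicate 3 (3177 and 1063) and 20-kPa viscoelastic replicate 3 (9). Between viscoelastic gels of 2 and 20 kPa the number was 653 with every gene tested, 167 with the length fit (93 higher and 74 lower, against 230 and 101), 38 with only the 2 groups and 757 with DESeq2. Total counts alone turned 1275 higher and 1617 lower calls at 2 kPa into 1675 and 1258. The median log2 fold change over all genes went from -7.5e-05 to 0.038 there. The TMM factors left out by that setting were 0.968 to 0.995 for 2-kPa elastic and 1.00 to 1.03 for 2-kPa viscoelastic samples. Why the factors differed between gel types was not tested.

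No pairing of samples by replicate number was used. Same-number correlations of deviations ran from -0.16 to 0.31, and both samples correlated best with their own number in 2 of 12 pairs. Both pairs were between the 2-kPa and 20-kPa viscoelastic gels, replicate 1 (0.18) and replicate 2 (0.31). Whether replicates of these 2 groups shared an origin was not tested. With the replicate block, 2569, 4485, 1731, 154 and 845 genes were called, and the members called for stiffness on elastic gels went from 2 to 1 (Gstt3, adjusted p = 0.0611), with no other member call changed. Of the other named genes, the calls of Abcc4 at 2 kPa and Maff at 20 kPa were lost with the block (adjusted p = 0.0573 and 0.0525). Mgst3 on elastic gels went from -0.00185 to 0.000198 with the block.

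Log2 values near 0 changed sign. With the length fit these were Gstp1 (-0.018) at 2 kPa, Mgst3 (-0.16) at 20 kPa, Gstm2 (-0.014), Gsto1 (-0.023) and Mgst3 (-0.023) for stiffness on viscoelastic gels and Mgst3 (-0.010) in the interaction. Mgst3 at 2 kPa was 0.0054 with total counts. Between elastic gels of 2 and 20 kPa it was 0.0093, 0.0058, 0.0015 and 0.011 with size factors, total counts, every gene and DESeq2. Leaving out 1 sample moved Mgst3 from -0.16 to 0.12 at 2 kPa, from -0.064 to 0.23 at 20 kPa, from -0.16 to 0.15 for stiffness on elastic gels and from -0.054 to 0.26 in the interaction. It moved Gstt1 from -0.064 to 0.21 for stiffness on elastic gels, Mgst1 from -0.14 to 0.12 on viscoelastic gels and from -0.21 to 0.040 in the interaction, and Gsto2 from -0.17 to 0.071 at 20 kPa. At these depths, with 69 to 252 counts per sample for Gsta4, Gstt1 and Mgst3, the SE of a log2 fold change between 2 groups was 0.143 to 0.191, against 0.0563 to 0.0709 for Gstm1, Gsto1 and Gstp1.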

Other observations

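The 9 other transferase-family genes listed in the count table but left out by the filter stayed low in all 12 samples: Gsta1, Gsta2, Gsta3, Gstm3, Gstm6, Gstp2, Gstp3, Gstt4 and Hpgds each had at most 0.40 CPM in any sample. Gsta3 had the highest single value, 0.40 CPM in the second 20-kPa viscoelastic sample, against 0.117 and 0.176 CPM in the others of that group.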
